A study of Mus musculus with 9 samples.

Results

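The transcription factors described here are 10 genes that mark or steer fibroblasts and the connective tissues related to scar: Tcf21, Meox1, Meox2, Runx1, Runx2, Sox9, Scx, Twist1, Prrx1 and Osr1. They were taken by symbol from the deposited read count table, as 10 of its 55367 gene symbols, and all 10 passed the filter on low counts that left 15138 genes to test. The table holds 9 bulk RNA-seq libraries of mouse left ventricle, 3 in each of 3 groups. MI+BPD hearts had a myocardial infarction (MI) and were given BPD, a treatment whose name, dose and schedule the labels do not spell out, although the series text ties it to the proliferative phase of repair. MI hearts had the infarction alone, and Sham hearts had sham surgery. The series text places the tissue at day 14 after MI, and the stated purpose of the comparison of MI+BPD with MI was to learn whether the treatment goes with less fibroblast activation. The sampled tissue covers the infarct and its border, which Sham hearts do not have. The labels name no strain, sex or age. The sample titles give each library its own heart number, but do not state whether that number marks a separate animal. The p-values therefore measure only the spread between these libraries, which may be technical.

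Resident fibroblasts of the heart arise largely from the epicardium, and after infarction they divide, turn into matrix-producing myofibroblasts and lay down the collagen scar. Transcription factors of the bHLH, homeobox, Runt and SOX families set these states: some mark the resting cell, some accompany activation, and others are best known as the master regulators of tendon, cartilage and bone, tissues that share much of their matrix with a scar. Most are also expressed in other cells, so a level in bulk tissue is a sum over cell types, and fewer cells of a type and less RNA per cell cannot be told apart in it.

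Total counts were 17006222 to 17424302 in MI+BPD, 19101748 to 19269072 in MI and 14451410 to 17703461 in Sham. Mitochondrial genes took 17.6 to 25.7% of counts in MI+BPD, 11.4 to 18.2% in MI and 34.4 to 35.2% in Sham. The leading principal component held 80.7% of the variance and set the 6 infarct libraries (14.8 to 79.4) apart from Sham (-98 to -94.5). The infarct library nearest to Sham on it was MI+BPD 1, which also had the highest mitochondrial share of the 6 and the highest summed cardiomyocyte marker level. For the members that were lowest in MI+BPD 1, changes between MI+BPD and MI are given with and without that library. The tissue label was met by the data. All 10 fibroblast markers were present, with a summed level of 17927 to 19514 CPM (read count per library size, with TMM factors from edgeR) in MI+BPD, 13657 to 20564 CPM in MI and 1275 to 1451 CPM in Sham, and all 10 were called higher in both infarct groups against Sham. The summed cardiomyocyte markers were 28186 to 42788 CPM in MI+BPD, 16942 to 29631 CPM in MI and 75476 to 79223 CPM in Sham, with 10 of 10 called lower, and no marker of any list used here was at 0 throughout a group. The part of this change in tissue makeup in the results below was not tested.

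In MI hearts, 8 of the 10 factors were higher than in Sham, Meox2 was lower, and Prrx1 was not called, by edgeR's quasi-likelihood test at an adjusted p under 0.05. In the same comparison 68.9% of all 15138 genes were called, 37% higher and 31.9% lower, so a call in itself is the common outcome here. The members' median log2 fold change was 2.97, beside 0.07 over all genes tested. In MI+BPD hearts against Sham the counts were again 8 higher, 1 lower and 1 not called, with a median log2 fold change of 2.80 beside 0.04 over all genes, of which 59.6% were called, 31.8% higher and 27.8% lower. The libraries did not overlap with Sham for the same 8 higher and 1 lower member in each comparison; over all genes this held for 74.4% in MI (40.1% higher, 34.3% lower) and 68.5% in MI+BPD (35.8% higher, 32.7% lower). These comparisons share the Sham libraries, so their likeness is no separate evidence. Between MI+BPD and MI, 0 members were called and 0 had an unadjusted p under 0.05.

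**Figure D1:**
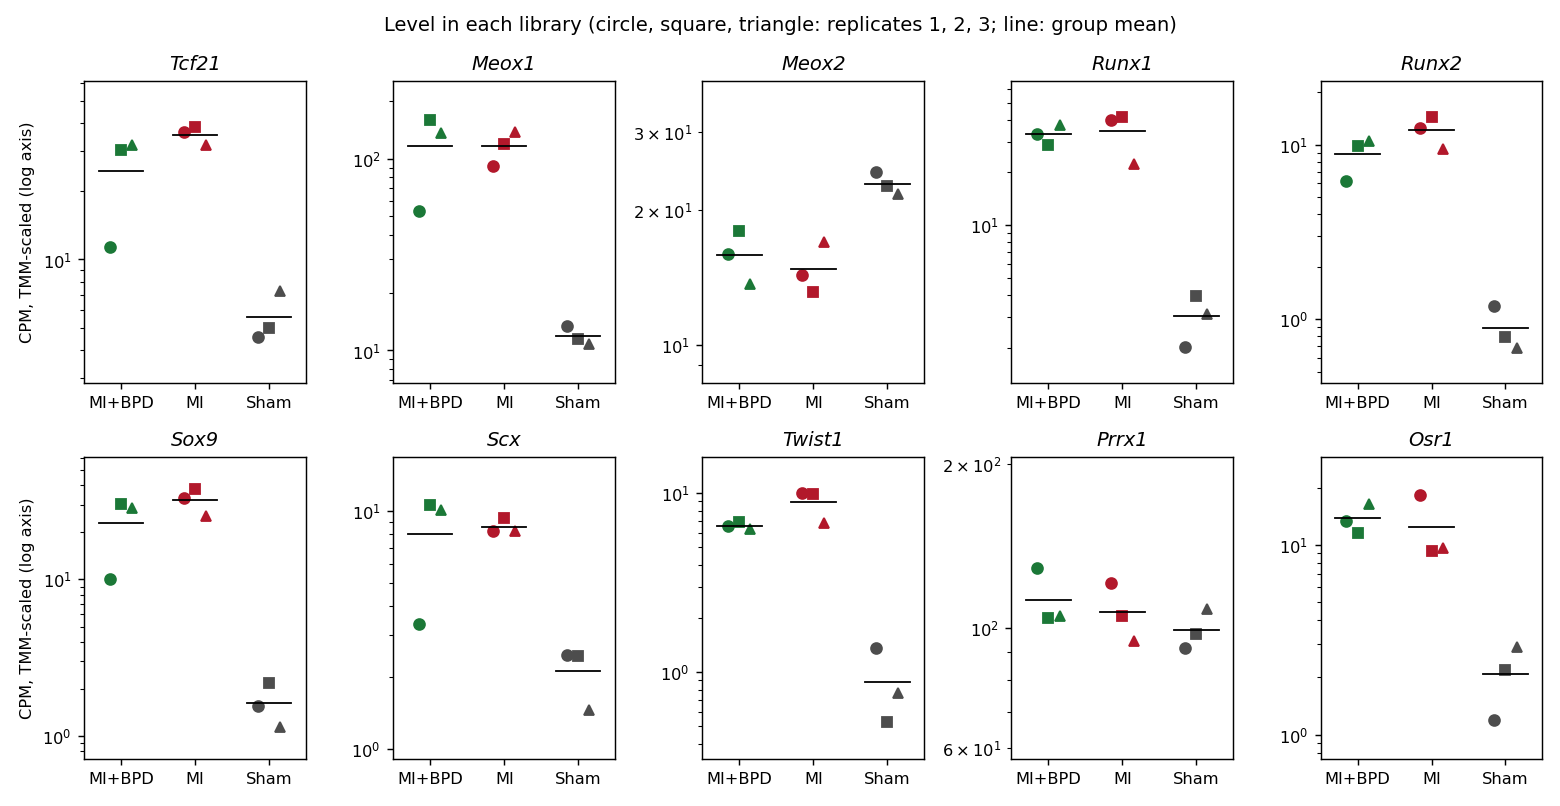
Level of each factor in every library, in CPM on a log axis, with 1 panel per gene and the groups MI+BPD, MI and Sham from left to right; points are libraries and bars are group means. The infarct libraries stand above Sham for Tcf21, Meox1, Runx1, Runx2, Sox9, Scx, Twist1 and Osr1 and below Sham for Meox2, while those of Prrx1 overlap with Sham.

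Tcf21, a bHLH factor that epicardial cells need to form cardiac fibroblasts and that marks the resident fibroblast, was measured at 11.4, 30.3 and 31.9 CPM in MI+BPD, at 36.3, 38.1 and 32.0 CPM in MI and at 4.57, 4.99 and 7.24 CPM in Sham. All infarct libraries lay above all Sham libraries, and the lowest of them was MI+BPD 1. The mean was 24.6 ± 11.4 CPM in MI+BPD, 35.5 ± 3.17 CPM in MI and 5.6 ± 1.44 CPM in Sham (SD, n = 3 each). The log2 fold change against Sham was 2.13 ± 0.36 in MI+BPD (SE; adjusted p = 0.00129) and 2.65 ± 0.36 in MI (adjusted p = 0.000213).

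Prrx1, a paired-related homeobox factor of limb and connective tissue mesenchyme, had 129, 104 and 105 CPM in MI+BPD, 121, 105 and 94.4 CPM in MI and 91.7, 97.5 and 108 CPM in Sham. The 3 groups overlapped. Its log2 fold change against Sham was 0.19 ± 0.12 in MI+BPD (adjusted p = 0.215) and 0.11 ± 0.12 in MI (adjusted p = 0.45), the value for MI with a 95% interval of -0.17 to 0.38. Prrx1 was thus not called in tissue whose 10 fibroblast markers were all called higher. Its position depends on the scaling: when counts were scaled by library totals alone, Prrx1 was called against Sham at 0.70 in MI+BPD (adjusted p = 0.00115) and at 0.85 in MI (adjusted p = 0.000211). The median log2 fold change over the whole table was then 0.57 in MI+BPD and 0.81 in MI, which Prrx1 exceeded by 0.13 in MI+BPD and by 0.04 in MI.

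Twist1, a bHLH factor of early mesenchyme and epithelial-mesenchymal transition, had 6.53, 6.88 and 6.3 CPM in MI+BPD, 10, 9.93 and 6.86 CPM in MI and 1.37, 0.525 and 0.762 CPM in Sham. Every infarct library was above every Sham library, where Twist1 rested on only 6 to 15 reads. The log2 fold change was 2.89 ± 0.29 in MI+BPD (adjusted p = 8.82e-05) and 3.34 ± 0.28 in MI (adjusted p = 2.96e-05), each against Sham.

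Osr1, a zinc finger factor that in the mouse embryo marks connective tissue progenitors of limb muscle, had 13.4, 11.6 and 16.4 CPM in MI+BPD, 18.2, 9.28 and 9.62 CPM in MI and 1.19, 2.19 and 2.9 CPM in Sham. The infarct libraries all exceeded Sham, and among the MI libraries MI 1 was the highest. The log2 fold change against Sham was 2.70 ± 0.36 in MI+BPD (adjusted p = 0.000383) and 2.54 ± 0.36 in MI (adjusted p = 0.000238). The summed epicardial markers were also highest in MI 1 (198 CPM). In the other infarct libraries they were 86.4 CPM in MI+BPD 1, 42.7 CPM in MI 2, 21.2 CPM in MI+BPD 3, 9.29 CPM in MI+BPD 2 and 8.79 CPM in MI 3. Osr1 had 13.4, 9.28, 16.4, 11.6 and 9.62 CPM in these libraries, in the same order. Over the groups the epicardial sums were 9.29 to 86.4 CPM in MI+BPD, 8.79 to 198 CPM in MI and 9.15 to 20.8 CPM in Sham. Against Sham, 1 of 6 epicardial markers was called higher in MI and 0 in MI+BPD, beside 37% and 31.8% of all genes. Their part in the Osr1 result was not tested.

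Meox1 and Meox2 are homeobox paralogues that act in somite development. Meox1 has been described in mouse hearts as a factor of stress-activated fibroblasts, and Meox2 is best known from endothelial and vascular smooth muscle cells. Meox1 had 53.2, 159 and 136 CPM in MI+BPD, 91.7, 120 and 138 CPM in MI and 13.4, 11.5 and 10.8 CPM in Sham. Every infarct library was above every Sham library, with a log2 fold change of 3.29 ± 0.38 in MI+BPD (adjusted p = 0.000179) and 3.29 ± 0.38 in MI (adjusted p = 9.92e-05), each against Sham.

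Meox2 went the other way, with 16.0, 18 and 13.7 CPM in MI+BPD, 14.3, 13.1 and 17.0 CPM in MI and 24.4, 22.7 and 21.8 CPM in Sham. Every infarct library was below every Sham library. The log2 fold change against Sham was -0.53 ± 0.13 in MI+BPD (adjusted p = 0.00607) and -0.63 ± 0.13 in MI (adjusted p = 0.0017). Vessel cells express Meox2, and 4 of 9 endothelial markers in MI+BPD and 5 of 9 in MI were called lower than in Sham. So were 2 of 6 mural markers in MI+BPD and 3 of 6 in MI, while 2 of 6 mural markers were called higher in each. Over all genes, 27.8% were called lower and 31.8% higher in MI+BPD, and 31.9% lower and 37% higher in MI. The summed endothelial markers were 968 to 1079 CPM in MI+BPD, 871 to 1071 CPM in MI and 1271 to 1465 CPM in Sham, and the summed mural markers were 1143 to 1534 CPM in MI+BPD, 919 to 1190 CPM in MI and 1585 to 1847 CPM in Sham. Their part in the Meox2 result was not tested. The calls for Meox2 were lost when counts were scaled by library totals alone. The log2 fold change against Sham was then -0.01 in MI+BPD (adjusted p = 0.966) and 0.09 in MI (adjusted p = 0.508), which are -0.58 and -0.72 relative to the median of all genes under that scaling.

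The ratio of Meox1 to Meox2 reads within a library needs no scaling between libraries. It was 3.33, 8.87 and 9.9 in MI+BPD, 6.39, 9.15 and 8.13 in MI and 0.551, 0.505 and 0.497 in Sham. Meox1 reads thus outnumbered Meox2 reads in all 6 infarct libraries, and the reverse held in all 3 Sham libraries. The mean log2 ratio was 2.96 ± 0.26 in MI and -0.95 ± 0.08 in Sham (SD, n = 3 each), a 15.1-fold difference with an exact 2-sided permutation p of 0.1, the smallest that 3 against 3 libraries allow, and 0.4 after Benjamini-Hochberg adjustment over the 12 ratio tests run. The difference of MI+BPD from MI was -0.23 on the log2 scale (exact p = 0.9), and MI+BPD 1 had the lowest ratio of the 6.

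Runx1 and Runx2 encode Runt domain factors that bind DNA with the shared partner CBFβ. Runx1 is required for blood formation and is known to be switched on in injured mouse myocardium, and Runx2 is the master regulator of bone-forming osteoblasts. Runx1 had 33.1, 28.8 and 37.1 CPM in MI+BPD, 39.9, 41.5 and 22.2 CPM in MI and 2.01, 3.94 and 3.13 CPM in Sham. The groups with infarction overlapped each other and lay clear of Sham, with a log2 fold change of 3.44 ± 0.30 in MI+BPD (adjusted p = 4.33e-05) and 3.51 ± 0.30 in MI (adjusted p = 2.88e-05). Macrophages also express Runx1, and all 10 macrophage markers were called higher against Sham, with summed levels of 945 to 1249 CPM in MI+BPD, 739 to 1286 CPM in MI and 359 to 427 CPM in Sham; their part in the Runx1 result was not tested.

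Runx2 had 6.23, 9.8 and 10.5 CPM in MI+BPD, 12.4, 14.5 and 9.48 CPM in MI and 1.19, 0.787 and 0.686 CPM in Sham, where it rested on 9 to 13 reads. All infarct libraries were above Sham, with a log2 fold change of 3.33 ± 0.31 in MI+BPD (adjusted p = 6.19e-05) and 3.78 ± 0.30 in MI (adjusted p = 2.29e-05). In the GENCODE M21 annotation, exons of Runx2 share 519 bases with the antisense gene Runx2os1 and exons of Runx1 share 106 bases with the antisense gene Gm26626. Whether reads were counted by strand is not known, so reads of these pairs cannot be told apart. Runx2os1 was counted at 2 to 4 reads in MI+BPD, 4 to 14 in MI and 0 in Sham, and Gm26626 at no more than 2 reads in any library.

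Sequence upstream of the start was read for the members that have a RefSeq promoter window, because Runt and bHLH factors, among them members described here, bind short motifs that can be looked up in it. RefSeq promoter windows (GRCm38.p6, 300 bases from 250 before to 50 after an annotated start) were matched for Tcf21, Meox2, Runx1, Runx2, Twist1 and Prrx1, 6 of the 10 members, with 7 windows in all, and not for Meox1, Sox9, Scx and Osr1; 7 motifs were searched on both strands. Shown are the 250 bases before the start of the 5′ promoter of Runx1 (chr16:92826075-92826324, minus strand; E-boxes, CANNTG, in capitals), of Runx2 (chr17:44814628-44814877, minus strand; RUNX motif, TGTGGT or its complement ACCACA, in capitals) and of Meox2 (chr12:37108290-37108539, plus strand; RUNX motif in capitals).
Runx1: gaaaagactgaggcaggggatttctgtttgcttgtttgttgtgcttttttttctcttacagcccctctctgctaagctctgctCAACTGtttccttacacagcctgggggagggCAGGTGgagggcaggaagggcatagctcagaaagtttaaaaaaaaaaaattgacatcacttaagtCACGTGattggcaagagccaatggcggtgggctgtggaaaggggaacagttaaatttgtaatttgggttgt
Runx2: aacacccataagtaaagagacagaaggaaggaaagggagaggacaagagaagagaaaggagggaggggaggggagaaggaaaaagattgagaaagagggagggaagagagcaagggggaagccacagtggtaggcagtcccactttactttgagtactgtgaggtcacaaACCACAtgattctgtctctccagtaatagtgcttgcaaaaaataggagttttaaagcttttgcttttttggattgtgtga
Meox2: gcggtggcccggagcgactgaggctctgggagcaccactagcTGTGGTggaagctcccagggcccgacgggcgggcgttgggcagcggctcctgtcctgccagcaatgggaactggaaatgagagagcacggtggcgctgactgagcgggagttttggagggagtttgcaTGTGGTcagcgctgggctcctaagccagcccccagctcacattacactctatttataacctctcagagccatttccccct

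Over the full window, the Runx2 promoter held 3 RUNX motifs, a number reached by 0.183% of the 32851 RefSeq windows, and Runx1 and Meox2 held 2 each, which 1.81% of windows reached; 16.8% held at least 1. E-boxes are common, with at least 1 in 72.3% of windows, and the Runx1 window held 3, a number reached by 17.6% of windows. The RUNX match and an E-box shared bases at 2 sites of Runx2 and 1 of Meox2. Just after the start, Runx1 (chr16:92826030-92826051, minus strand) and Runx2 (chr17:44814588-44814609, minus strand) carried the same 22 bases with 2 copies of the RUNX motif in capitals, a stretch found in 2 of the 32851 windows, those of these 2 genes.
Runx1 and Runx2: aaacaACCACAgaACCACAagt

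The longest stretch shared by any other pair of members was 11 bases (Twist1 and Runx2). A TAATTA homeobox motif, held by 5.29% of windows, was found once in Prrx1, GGAATG (TEAD; 14.7% of windows) once each in Prrx1 and the other Runx1 window, and TATAAA (13.6%) once each in Twist1 and Meox2, while AP-1 (TGANTCA) and SOX (ACAAAG) motifs had no match in the 7 windows. A match describes letters only and is no binding site.

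Sox9, an HMG box factor and the master regulator of cartilage, had 10.1, 30.3 and 28.4 CPM in MI+BPD, 33.3, 38.0 and 25.4 CPM in MI and 1.56, 2.19 and 1.14 CPM in Sham. It had the largest log2 fold change of the 10 members against Sham, 3.83 ± 0.47 in MI+BPD (adjusted p = 0.000246) and 4.32 ± 0.47 in MI (adjusted p = 7.49e-05). Every infarct library was above Sham, and MI+BPD 1 was again the lowest of them. Scx, the bHLH factor of tendon progenitors, had 3.35, 10.6 and 10.1 CPM in MI+BPD, 8.27, 9.32 and 8.24 CPM in MI and 2.47, 2.45 and 1.45 CPM in Sham. The groups with infarction were above Sham in every library, with a log2 fold change of 1.93 ± 0.41 in MI+BPD (adjusted p = 0.00348) and 2.03 ± 0.41 in MI (adjusted p = 0.00176).

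**Figure D2:**
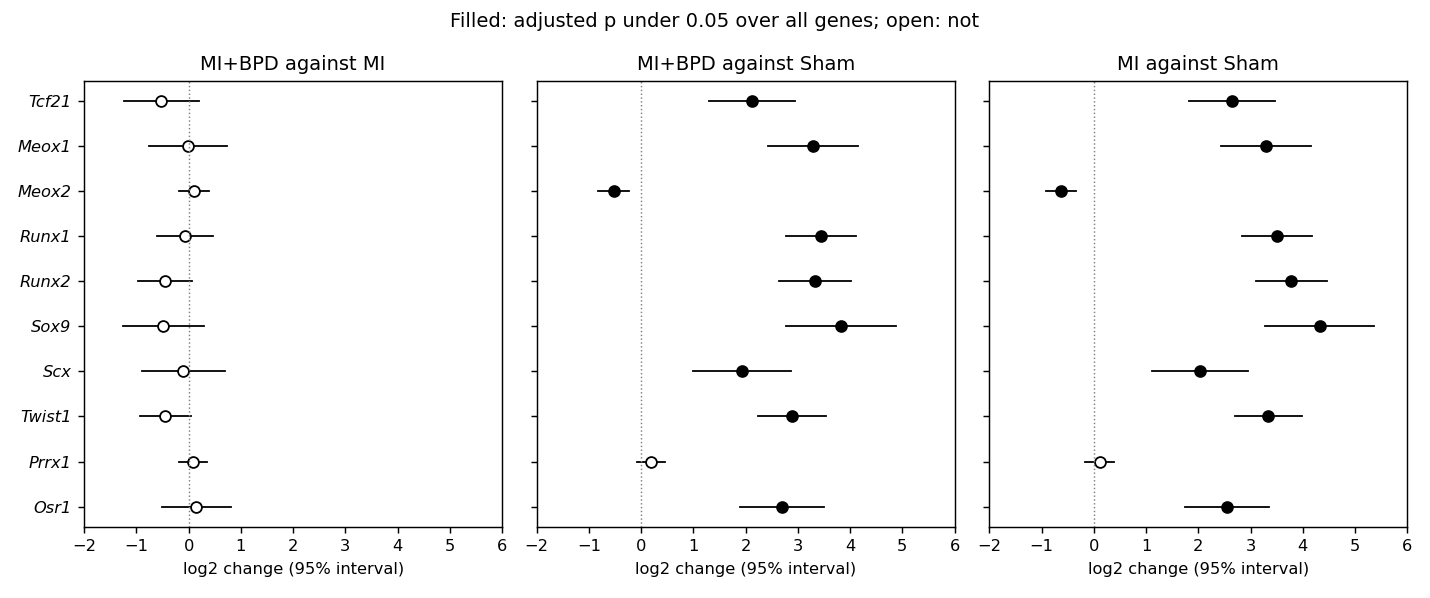
Log2 fold changes of the 10 factors (points) with 95% intervals (lines), in panels for MI+BPD against MI, MI+BPD against Sham and MI against Sham, from edgeR's quasi-likelihood fit. Against Sham the intervals of 9 factors lie clear of 0, Meox2 below it, and that of Prrx1 spans 0; in MI+BPD against MI all 10 intervals span 0.

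For the question the study asked, whether treatment goes with less fibroblast activation, the 10 factors gave log2 fold changes of MI+BPD against MI that were below 0 for 7 and above 0 for 3, with a median of -0.08, and no member was called. Over all 15138 genes 0% were called, the smallest adjusted p was 0.369, and 2043 (13.5%) had an unadjusted p under 0.05. The count of called genes is not stable: DESeq2 called 51 and limma-voom 1063, and without MI 3 edgeR called 1353. The lowest estimates were for Tcf21 (-0.53 ± 0.32, 95% interval -1.24 to 0.19, adjusted p = 0.446), Sox9 (-0.49 ± 0.34, -1.26 to 0.29, adjusted p = 0.514), Runx2 (-0.45 ± 0.23, -0.96 to 0.06, adjusted p = 0.395) and Twist1 (-0.45 ± 0.22, -0.94 to 0.05, adjusted p = 0.389). Meox1 differed by -0.01 ± 0.33 (-0.75 to 0.74), Runx1 by -0.07 ± 0.24 (-0.6 to 0.46), Scx by -0.10 ± 0.35 (-0.89 to 0.69), Prrx1 by 0.08 ± 0.12 (-0.19 to 0.35), Meox2 by 0.10 ± 0.13 (-0.18 to 0.39) and Osr1 by 0.15 ± 0.30 (-0.51 to 0.82). These intervals do not show that the factors were equal. Tcf21 was the 1 member whose MI+BPD libraries all lay below the MI libraries, beside 7.32% of all genes lower in this way, 6.63% higher and 13.9% in either direction; its highest MI+BPD library (31.9 CPM) and lowest MI library (32.0 CPM) lay next to each other. By limma-voom alone, Twist1 was called (-0.55, adjusted p = 0.0451).

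**Figure D3:**
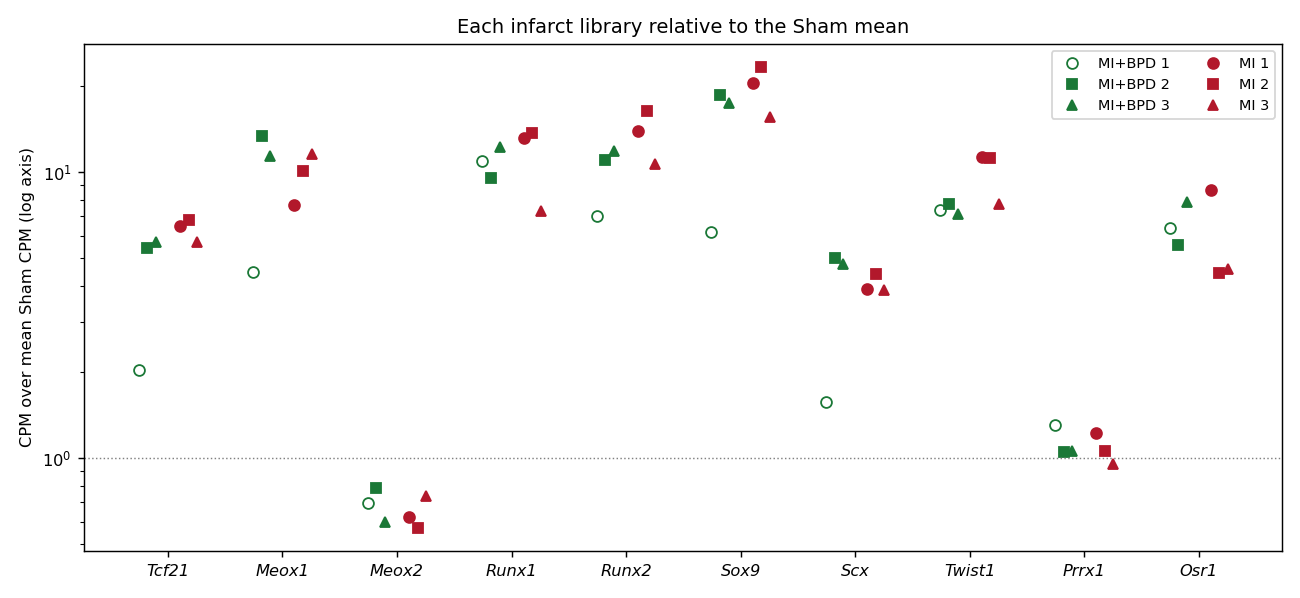
CPM of each factor in the 6 infarct libraries divided by its mean Sham CPM, on a log axis, with MI+BPD left of MI for each gene; points are libraries, MI+BPD 1 is the open circle and the dotted line marks the Sham mean. MI+BPD 1 lies lowest for Scx, Sox9, Meox1, Tcf21 and Runx2, as it does for 29.4% of all genes tested.

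Library MI+BPD 1 set the lower end of several of these estimates. Its level was 0.325 of the mean of MI+BPD 2 and 3 for Scx, 0.345 for Sox9, 0.36 for Meox1, 0.368 for Tcf21 and 0.613 for Runx2, while the ratio was 0.956 for Osr1, 0.991 for Twist1, 1 for Runx1, 1.01 for Meox2 and 1.24 for Prrx1. MI+BPD 1 was the lowest of the 6 infarct libraries for 5 of the 10 members and for 29.4% of all genes tested. Of the members, 4 of 10 had a ratio under 0.5, as did 3.29% of all genes tested, and the median ratio of all genes was 0.993. Among the listed genes and markers, Comp (0.234), Postn (0.55), Cthrc1 (0.61), Pdgfra (0.82), Col1a2 (1.11) and Col1a1 (1.46) were not alike in that library. Its summed cardiomyocyte markers were 42788 CPM, the highest of the 6 infarct libraries, and its mitochondrial share was 25.7%; their part in its low values was not tested. Without MI+BPD 1 the log2 fold changes of MI+BPD against MI were -0.21 for Tcf21, -0.16 for Sox9, -0.28 for Runx2, 0.24 for Scx, 0.32 for Meox1, -0.46 for Twist1 and -0.05 for Prrx1, so the direction of Scx, Meox1 and Prrx1 turned.

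Further ratios within a library were compared. The ratio of Scx to Tcf21 reads was 0.295, 0.35 and 0.315 in MI+BPD, 0.228, 0.245 and 0.258 in MI and 0.545, 0.496 and 0.204 in Sham. The MI+BPD libraries all exceeded the MI libraries, by 1.31-fold, with an exact 2-sided permutation p of 0.1 (0.4 adjusted over 12 tests), the smallest the design allows. The ratios of Runx1 to Runx2 and of Twist1 to Tcf21 overlapped between groups in every comparison, with exact p from 0.2 to 0.9.

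**Figure D4:**
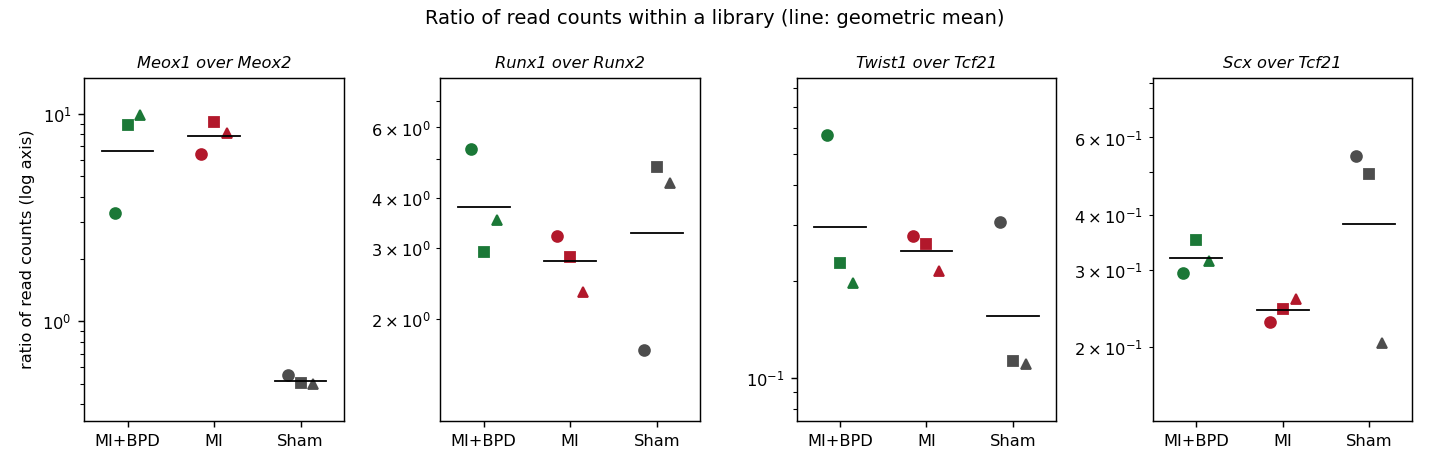
Ratio of the read counts of 2 members within each library, on a log axis, in panels for Meox1 over Meox2, Runx1 over Runx2, Twist1 over Tcf21 and Scx over Tcf21, with MI+BPD, MI and Sham from left to right; points are libraries and lines are geometric means. The Meox1 over Meox2 ratio lies clear of Sham in both infarct groups, and the others overlap with Sham.

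Per kilobase of annotated exon, Meox1 had the highest level of the 10 in both infarct groups, at 52.2 CPM per kilobase in MI+BPD and 52.4 in MI, with no overlap with the next gene, Tcf21 (10.5 in MI+BPD and 15.1 in MI). Prrx1 came next at 10.2 in MI+BPD and 9.64 in MI, followed in MI+BPD by Meox2 (6.73), Osr1 (6.67), Sox9 (5.55), Twist1 (4.03) and Scx (3.98). In MI the order after Prrx1 was Sox9 (7.8), Meox2 (6.28), Osr1 (5.98), Twist1 (5.49) and Scx (4.29). On the same per-kilobase scale Runx1 (2.75 in MI+BPD, 2.87 in MI) and Runx2 (1.0 in MI+BPD, 1.37 in MI) were lowest in both. Neighbours in this order whose libraries did not overlap were, beside Meox1 and Tcf21, Runx1 and Runx2 in both groups, Prrx1 and Meox2 in MI+BPD, and Tcf21 and Prrx1 as well as Scx and Runx1 in MI. In Sham the levels per kilobase were led by Meox2 (9.74) and Prrx1 (8.94), whose libraries overlapped, and then came Meox1 (5.35) and Tcf21 (2.38), each clear of its neighbours. Scx (1.06), Osr1 (1.01), Twist1 (0.545) and Sox9 (0.394) followed, each overlapping with the next. Runx1 (0.252) came after Sox9, and Runx2 (0.1) was lowest and clear of Runx1. These orders depend on the lengths used, which merge all annotated exons of a gene. They were 12025 bases for Runx1, 11066 for Prrx1 and 8837 for Runx2, beside 2349 for Tcf21 and 2228 for Meox1. Without division by length, Runx1 had 34.6 CPM in MI, beside 35.5 CPM for Tcf21 and 32.2 CPM for Sox9. The annotation used to count the reads is not known.

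Around the members, 73 listed genes were followed, of which 64 were tested. In MI against Sham 53 were higher, 5 lower and 6 not called, beside 37% higher and 31.9% lower over all genes. In MI+BPD against Sham 50 were higher, 5 lower and 9 not called, beside 31.8% higher and 27.8% lower over all genes. MI+BPD against MI had 0 called. That 0 depends on the method: limma-voom called Thbs2 (-0.83), Acan (-1.19), Col10a1 (-2.67) and Col27a1 (-0.60) lower and Tcf15 (0.83) higher in MI+BPD than in MI, at adjusted p from 0.0384 to 0.0499. Without MI 3, edgeR called Thbs2 (-0.78), Acan (-1.36) and Col10a1 (-2.83) lower and Tcf15 (1.07) higher, at adjusted p from 0.0334 to 0.0451. The 5 called lower in MI were Tcf15 (-1.56), Sox6 (-0.98), Id1 (-0.51), Srf (-0.68) and Alpl (-0.55); scaled by library totals alone, Sox6 (-0.25) and Tcf15 (-0.85) were still called lower in MI and the other 3 were not, and in MI+BPD against Sham 0 of the 5 lower calls were left.

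Against Sham, 37% of all genes were called higher and 31.9% lower in MI, and 31.8% higher in MI+BPD. Of the members' paralogues, 8 of 9 were tested and 6 were called higher and 2 lower in MI, with a median log2 fold change of 2.34. The 2 called lower were Sox6 (-0.98 ± 0.12) and Tcf15 (-1.56 ± 0.25). Sox5 was higher by 2.5 ± 0.21, and Runx3, which lymphocytes express, by 2.51 ± 0.34. Of the 7 lymphocyte markers, 4 in MI+BPD and 7 in MI were called higher than in Sham, with summed levels of 2.88 to 5.49 CPM in MI+BPD, 3.96 to 39.9 CPM in MI and 1.75 to 1.92 CPM in Sham; their part in the Runx3 result was not tested. Prrx2, with 2 reads in all Sham libraries, had a ratio to Sham of 49.9 in MI+BPD, with a 95% counting interval of 13.6 to 415, and of 70.7 in MI (19.4 to 586). All 8 binding partners and inhibitors were tested, with 7 higher and 1 lower, and a median of 0.71. Among them Cbfb, the shared partner of the Runx factors, was higher by 0.61 ± 0.09, Tcf12, an E-protein partner of Tcf21, Scx and Twist1, by 0.76 ± 0.08, and Id2 and Id3, which keep bHLH factors from DNA, by 2.69 ± 0.29 and 1.90 ± 0.24. Of 21 other mesenchymal factors, 17 were higher, 1 lower and 3 not called, with a median of 1.39; those with the smallest adjusted p were Gli3 (2.18 ± 0.17), Zeb2 (1.21 ± 0.1), Gli2 (2.85 ± 0.27) and Tbx18 (1.92 ± 0.21).

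Genes of the tissues that Scx, Sox9 and Runx2 direct were also counted, beside 37% of all genes called higher and 31.9% lower in MI against Sham. All 7 tested tendon genes were higher in MI, with a median log2 fold change of 5.43. Those with the smallest adjusted p were Col14a1 (4.95 ± 0.22), Col1a2 (5.29 ± 0.29), Col1a1 (5.43 ± 0.33) and Thbs2 (4.09 ± 0.3). Col1a1 and Col1a2 are also among the fibroblast markers counted above. Tnmd, the tenomodulin of mature tendon, was at least 57.4-fold higher in MI+BPD and at least 61.0-fold higher in MI. Sham had no Tnmd reads, and 3 reads over the group were taken as the floor. Of 10 tested cartilage genes 9 were higher, with a median of 6.57 (5.35 with genes near 0 in Sham at their bound). Acan, the aggrecan of cartilage, with 10 Sham reads, rose by 6.93 ± 0.55. Comp rose by 9.22 ± 0.78, Col27a1 by 3.30 ± 0.22 and Col11a1, with 4 Sham reads, by 9.86 ± 0.66. In MI+BPD against MI the cartilage genes had a median log2 fold change of -0.73, beside 0.0 over all genes, with 0 of 10 called by edgeR. That median is given only with MI+BPD 1 included. In that library Comp had 204 CPM, beside a mean of 872 CPM in MI+BPD 2 and 3. Of 4 tested bone genes 2 were higher, 1 lower and 1 not called. Spp1, osteopontin, which macrophages make too, was higher by 4.33 ± 0.37, and Col10a1, with 1 Sham read, had a ratio to Sham of 9.53 (1.47 to 401) in MI+BPD, where it was not called, and of 55.0 (9.68 to 2193) in MI. Mmp13 was not called, and 5 of the 9 bone genes were too low to test. A list of 6 genes followed for activated fibroblasts also held the cell cycle inhibitors Cdkn1a and Cdkn2a. Of the 6, 5 were higher, among them Cthrc1 (9.08 ± 0.42, with 9 Sham reads), Postn (5.90 ± 0.29), Tnc (5.86 ± 0.62) and Ccn2 (4.35 ± 0.49). Cdkn2a was called with only 2 Sham reads, and Cdkn1a was not called (0.33 ± 0.16, adjusted p = 0.0881). In MI+BPD against MI the 6 genes had a median log2 fold change of -0.23, with 0 called. Tnc (1.02 ± 0.42) and Postn (0.40 ± 0.24) were above 0. Ccn2 (-0.50 ± 0.43), Cdkn2a (-0.44 ± 0.54), Cthrc1 (-0.41 ± 0.23) and Cdkn1a (-0.05 ± 0.15) were below 0. The fibroblast markers had a median of 0.08 in that comparison, with 0 called. These values include MI+BPD 1.

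The genes whose profile over the 9 libraries was most like a member's, given as a description with no p since all members but Prrx1 share the infarct against Sham split, had Pearson r from 0.968 upward for the top gene of each. They were Plcxd2, Gprasp2 and Clec12a for Tcf21 (r 0.994, 0.993 and 0.993), Dio2, Fibin and C1qtnf2 for Meox1 (0.995, 0.995 and 0.994) and Dnajc8, Cenpx and P2ry2 for Meox2 (0.988, 0.987 and 0.984). For Runx1 they were Nnmt, Pdpn and Srpx (0.997 each), for Runx2 Npdc1, Cyp20a1 and Srgap3 (0.998, 0.998 and 0.997) and for Sox9 Trim41, Cxcl16 and Loxl3 (0.998, 0.997 and 0.997). Scx was nearest to Setd7, Shc4 and Mmp28 (0.994, 0.99 and 0.988), Taf1 and Igsf3 were among the nearest to Twist1 (0.997 and 0.996), Osr1 was nearest to Ptpn7, Ammecr1l and Plagl2 (0.989, 0.989 and 0.988), and Prrx1 to Ccl9, Dmkn and Mmp9 (0.968, 0.947 and 0.946). Prrx1, which did not follow the split, had the lowest values. Over the 6 infarct libraries alone, r was 0.86, 0.82 and 0.76 for the genes listed for Osr1, and 0.89 or more for those listed for the other members. These genes were picked by r over all 9 libraries, which include those 6. Their r over the 6 is therefore no separate check of the likeness.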

How the data were processed

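RNA of left ventricle was sequenced on DNBSEQ-T7 (paired-end), per the labels' protocols. The authors deposited whole-number read counts for each gene symbol, not normalized. STAR is named, without a version, and mm10, GRCm39 and mm39 are named without a role, per the submitters' processing notes. What counted the reads, with which strand setting and annotation, was not given in the sources used here. Gene coordinates are therefore not printed. The build of the promoter windows is RefSeq's own.

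The 55367 symbols were fitted in R 4.3.3 with edgeR 4.0.16: TMM scaling, filterByExpr (minimum count 10, minimum total 15), which left 15138 genes with 99.9% of counts, and robust quasi-likelihood tests of the 9 libraries, grouped by condition (residual degrees of freedom 6). The Benjamini-Hochberg adjustment covered all genes tested, and calls were made at 0.05. The standard error (SE) follows from the F statistic. CPM means carry the standard deviation (SD) of 3 libraries. A fold against 0 Sham reads is a lower bound against 3 reads over the group, and ratios over 1 to 3 reads carry a 95% exact interval. Reads carry no molecular identifiers, so intervals and floors cover counting error only. Exon lengths came from GENCODE M21. The scripts were tested on simulated data.

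Alternatives were other scalings and filters, DESeq2 1.42.0, limma-voom (limma 3.58.1), a replicate block, leaving out mitochondrial and haemoglobin genes, fits of the compared groups only and each library left out. The labels do not say that a replicate number marks a shared animal or batch. No libraries of a group were duplicates. The members and lists were chosen with earlier results of these data known. Named genes were the members, up to 4 per list with the smallest adjusted p in MI against Sham, and the 3 most alike by Pearson r, of which 1 is not reported here. Tcf15, Id1, Srf, Tnmd, Pdgfra, Cdkn1a and Cdkn2a were named after their values were seen.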

Additional observations from a re-analysis of the deposited data

How the results depend on the processing

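The members called against Sham numbered 9 in MI and 9 in MI+BPD under all 19 alternatives. With library totals as the only scaling these were 9 higher and 0 lower, since Prrx1 was called and Meox2 was not, and calls over all genes in MI against Sham split into 10488 higher and 1765 lower, against 5594 and 4835 with TMM. That scaling reversed Meox2 in MI against Sham (0.09) and, in MI+BPD against MI, Meox2 (-0.10), Prrx1 (-0.15) and Osr1 (-0.07); it shifts the median of all genes from 0.07 to 0.81 and from 0 to -0.20. Between MI+BPD and MI, limma-voom called 1 member (Twist1), 5 listed genes and 1063 genes in all (820 higher, 243 lower) and reversed Meox1 (0.20), Scx (0.06) and Prrx1 (0.00), and DESeq2 called 51 genes (21 higher, 30 lower). Leaving out 1 library gave 0 to 1353 genes (1353 without MI 3), 0 to 4 listed genes and log2 fold changes of -0.30 to 0.09 for Runx1, -0.30 to 0.32 for Meox1, -0.01 to 0.54 for Osr1, -0.35 to 0.24 for Scx and -0.05 to 0.18 for Prrx1. Ratios ranged, with 1 library left out, over -0.52 to 0.26 for Meox1 over Meox2 and -0.23 to 0.53 for Twist1 over Tcf21 in MI+BPD against MI, -0.72 to 0.04 and -0.27 to 0.49 for Runx1 over Runx2 in MI and in MI+BPD against Sham, and -0.70 to 0.01 for Scx over Tcf21 in MI+BPD against Sham. The cause of these changes was not tested.

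Deviations of same-numbered libraries from their group means had correlations of -0.158 to 0.194. Differently numbered libraries were not compared beside them, so this check cannot tell whether the numbers pair the libraries. With a replicate block, 9 members and 8457 genes in all were called in MI+BPD against Sham, 9 and 10054 in MI against Sham, and 0 and 0 between MI+BPD and MI. Sham counts were low for Twist1 (6 to 15 reads), Runx2 (9 to 13), Osr1 (13 to 38), Sox9 (15 to 25) and Scx (19 to 28), which adds counting error to their folds. In MI against Sham the SE was nevertheless smaller for Twist1 (0.28) and Runx2 (0.30) than for Osr1 (0.36), Scx (0.41) and Sox9 (0.47).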
